A study of Mus musculus with 11 samples.

Results

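The genes described here are 36 members of the actin cytoskeleton, its regulators and its partners, taken by their symbols from a table of 52143 mouse genes. All 36 passed the filter on low values that left 13711 genes for testing, and the rule is the list of symbols, with no threshold on a measured value, although the list was drawn up with earlier results of these data known. RNA had been sequenced from RAW cells, an established mouse macrophage line, as 4 groups. These were shGIV cells given 100 ng/ml of lipopolysaccharide (LPS, a component of bacterial outer membranes that macrophages sense) for 5 hours (3 libraries), shGIV cells without LPS (3 libraries), shC cells given the same dose for 5 hours (1 library) and shC cells without LPS (2 libraries). The shGIV hairpin is directed at GIV (Girdin), an actin-binding protein and modulator of trimeric G proteins encoded by Ccdc88a, and shC is the control hairpin that the comparison cells carry. The labels do not say whether the lines are clones or pools, and do not say that replicates are separate cultures, so p-values measure the spread between these samples, which may be technical.

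Actin is a globular protein that assembles into filaments. Profilin and thymosin beta 4 hold the monomers, the Arp2/3 complex starts new filaments as branches when WASP family proteins activate it, capping and severing proteins end and cut filaments, crosslinkers tie them into networks and bundles, and myosin II pulls on them. Adhesion plaque proteins and membrane linkers connect the network to the substrate and the plasma membrane. In macrophages this network drives spreading, migration and phagocytosis.

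Values are in TPM (transcripts per 1000000, corrected for length), and differences are on the log2(TPM + 1) scale, given as an estimate ± its standard error from 1 limma model over the 9 libraries, with adjusted p-values over all 13711 genes and a threshold of 0.05. The shC group with LPS is 1 library, so its spread is assumed to be that of the other groups, and every difference that uses shC cells with LPS rests on it. The third shC library without LPS (replicate 2) was left out, since a single microRNA transcript, Mir6236, held 57.8% of it; the share was 3.79% to 8.78% among libraries used. Depth per library is not known from TPM; the labels give only an approximate range of reads for all samples. Of 12 macrophage markers, 11 reached 1 TPM in every library used, Mertk being the exception, while fibroblast, epithelial and T cell markers never reached 1 TPM. In each of the endothelial, muscle and B cell lists 1 marker did, at up to 5.18 TPM for Vwf, 2.62 TPM for Acta2 and 1.13 TPM for Pax5. The summed muscle list was at 2.06 to 2.62 TPM in shGIV cells with LPS and 0.274 to 0.922 TPM without, the B cell list at 0.726 to 0.955 and 0.182 to 0.352 TPM, and the endothelial list at 2.36 to 2.59 and 3.85 to 5.35 TPM, and their part in the results was not tested. In whole-culture RNA, fewer cells of a type and less RNA per cell cannot be told apart.

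Ccdc88a itself was at 3.08, 2.62 and 3.39 TPM in shGIV cells with LPS, against 5.77 TPM in shC cells with LPS. In resting cultures Ccdc88a had 6.93, 5.31 and 5.58 TPM in shGIV cells, against 10.0 and 7.69 TPM in shC cells. The groups did not overlap in either condition. The difference was -0.75 ± 0.19 with LPS (adjusted p = 0.0681) and -0.50 ± 0.15 without (adjusted p = 0.232), and neither passed the threshold.

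Together the 36 genes made up 2.28% to 2.50% of TPM in shGIV cells with LPS and 1.97% to 2.01% in shGIV cells without, and 2.78% in the shC library with LPS and 1.93% and 2.20% in shC cells without. In shGIV cells with LPS, 9 members averaged above 1000 TPM and 2 below 10 TPM. The most abundant were Actb, Actg1, the thymosin Tmsb4x and the severing protein cofilin (Cfl1), and the least abundant was the bundler Fscn1. The median coefficient of variation between replicates was 6.58% in shGIV cells with LPS, 3.31% in shGIV cells without (3 libraries each) and 10.5% in shC cells without LPS (2 libraries).

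**Figure D1:**
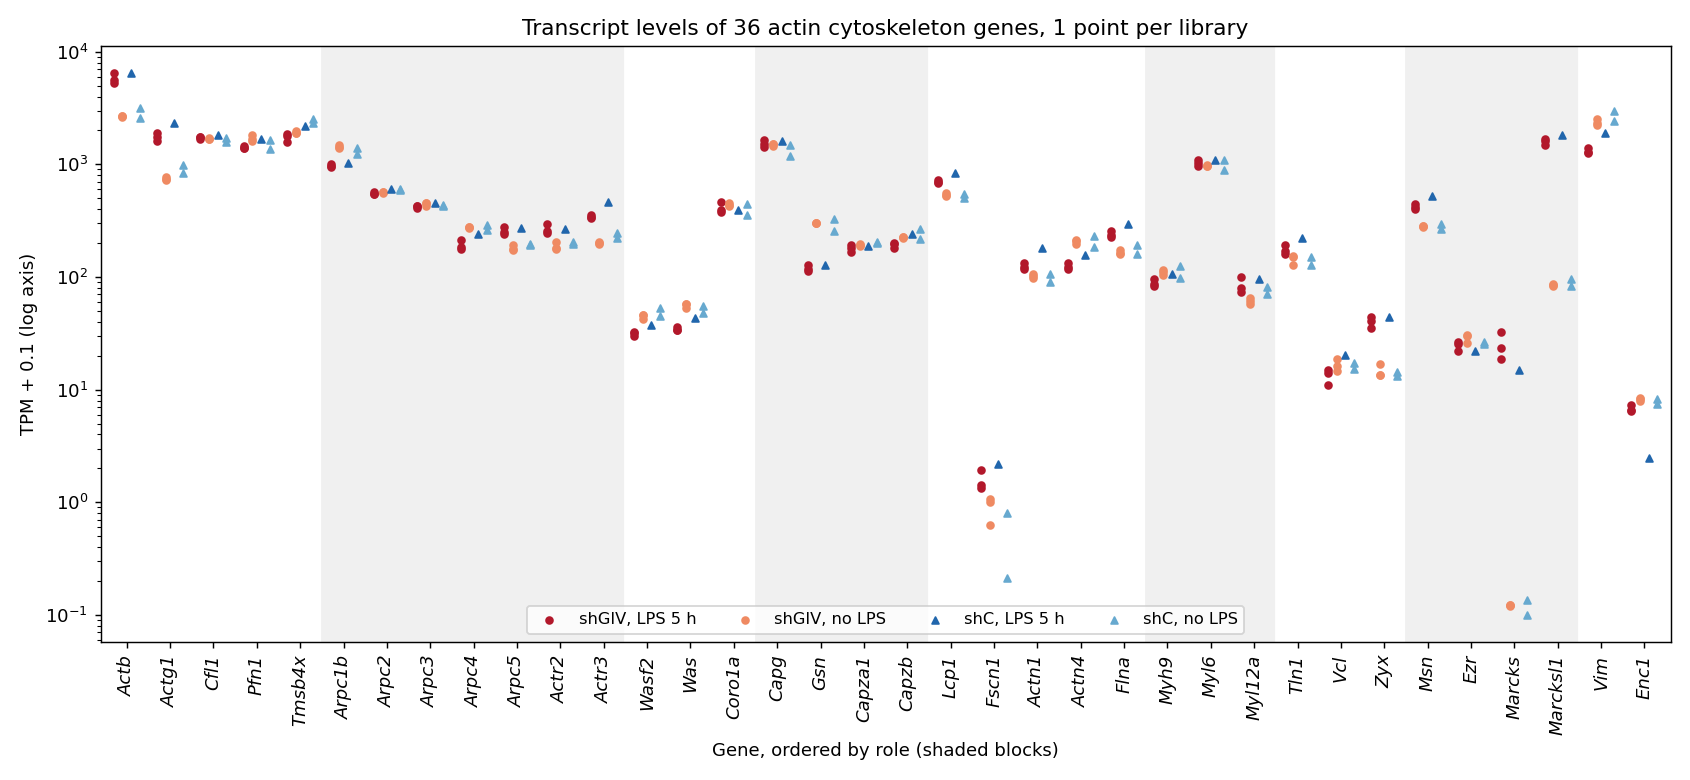
TPM + 0.1 on a log axis for each of the 36 genes, ordered by role, with 1 point per library for shGIV cells with LPS, shGIV cells without, shC cells with LPS (1 library) and shC cells without. Marcks sits at the bottom of the plot without LPS in both lines and at 14.9 to 32.1 TPM with it, and Marcksl1 stands near the actins with LPS.

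In the GIV-depleted line LPS raised both cytoplasmic actins, the Arp2/3 subunits Actr2, Actr3 and Arpc5, the crosslinkers Lcp1, Actn1 and Flna, the adhesion proteins Zyx and Tln1, the light chain Myl12a, moesin and both MARCKS proteins, and the fall that held under every scaling was that of gelsolin. In shGIV cells 14 members were higher and 11 lower with LPS, and 11 did not pass the threshold. Of all genes tested, 75.5% passed in this comparison, 15.8% higher and 59.7% lower. In shC cells 14 members were higher and 6 lower, where 58.9% of all genes passed, 14.8% higher and 44.1% lower. Of the 14 higher members, 13 were called in both lines, and the 6 lower in shC cells were all among the 11 lower in shGIV cells. No member was called in opposite directions. In shGIV cells every library with LPS lay above every library without it for 15 members (16.7% of all genes) and below for 13 (61.8%), and in shC cells for 21 (24.6%) and 11 (62.9%). The 2 responses share no library, although they share the estimate of the spread.

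The scale of the libraries bears on every fall. The median difference of all tested genes was -0.54 with LPS in shGIV cells and -0.40 in shC cells, and the median of the 36 members was 0.00047 in shGIV cells and 0.16 in shC cells. In shGIV cells 31 of 36 members, and in shC cells 33, lay above the median of all genes. Trimmed-mean (TMM) scaling, which sets the middle of the genes near 0, moved the median up by 0.55 in shGIV cells and 0.40 in shC cells and gave 32 members higher and 1 lower in shGIV cells, where 34.5% of all genes were then higher and 32.6% lower. In shC cells it gave 29 higher and 2 lower, where 28.5% of all genes were higher and 25.0% lower. All 14 rises in shGIV cells were called under each of the 4 scalings tried (TPM as deposited, rescaling without mitochondrial and top genes, quantile and TMM). Of the 11 falls, that of Gsn alone was called under all 4, and 7 had the opposite sign with TMM. In shC cells 12 of the 14 rises were called under all 4, and those of Arpc5 and Actr2 were not. Of the 6 falls in shC cells, 2 were called under all 4, those of Gsn and Enc1, and 4 had the opposite sign with TMM.

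**Figure D2:**
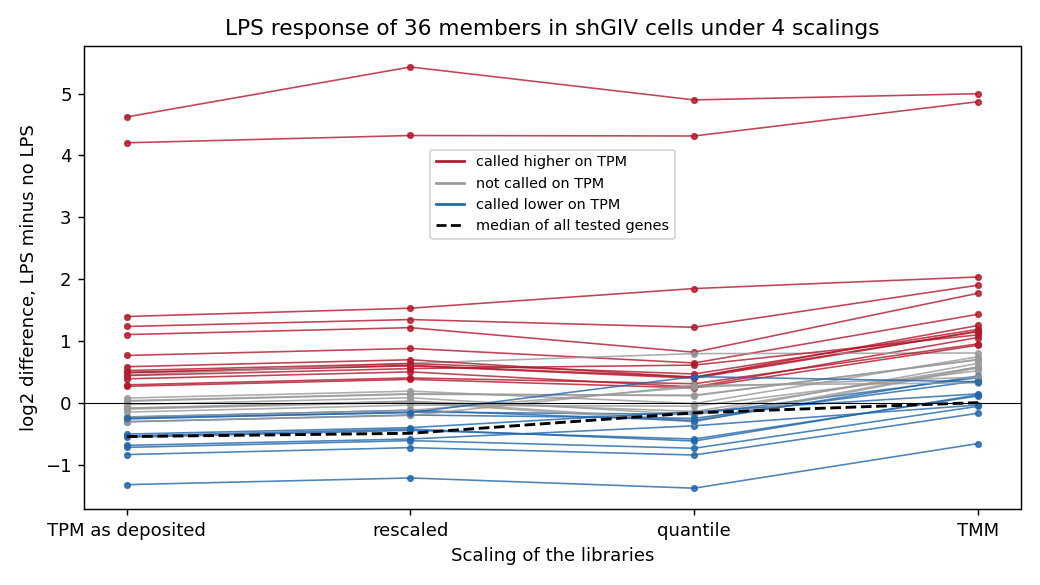
The log2 difference with LPS in shGIV cells for each of the 36 genes (lines) under 4 scalings of the libraries, coloured by the call on TPM as deposited, with the median of all tested genes dashed. The 14 genes called higher stay above 0 under every scaling, whereas 7 of the 11 called lower lie above 0 under TMM.

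Actb, which encodes beta-actin and is often used as a loading control, had 5592, 6434 and 5241 TPM in shGIV cells with LPS, against 2613, 2672 and 2710 TPM without. In shC cells it had 6464 TPM with LPS, against 2564 and 3183 TPM without. Every library with LPS lay above every library without it, and the difference was 1.11 ± 0.10 in shGIV cells (adjusted p = 2.47e-05) and 1.18 ± 0.15 in shC cells (adjusted p = 0.000367).

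Actg1, which encodes gamma-actin, had 1755, 1886 and 1626 TPM in shGIV cells with LPS, against 724, 734 and 774 TPM without. In shC cells it had 2316 TPM with LPS, against 839 and 993 TPM without. The groups were apart in both lines, with a difference of 1.24 ± 0.08 in shGIV cells (adjusted p = 3.85e-06) and 1.34 ± 0.12 in shC cells (adjusted p = 5.79e-05). Only 59.8% of the 31-base words in Actg1 transcripts occur in no other gene (76.5% for Actb), most of the shared ones in the pseudogene Gm12715, so part of its level depends on how reads were divided. Actb exceeded Actg1 3.19 to 3.41 times in shGIV cells with LPS and 3.50 to 3.64 times without, and 2.79 times in shC cells with LPS and 3.06 and 3.20 times without.

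The promoter of Actg1 is shown because genes of actin and its partners are known targets of serum response factor, which binds the CArG box. This is the RefSeq window of GRCm38.p6 from 250 bases before to 50 bases after the start, on the minus strand of chr11:120348446-120348745, with its single CArG box in capitals 90 bases before the start.
Actg1: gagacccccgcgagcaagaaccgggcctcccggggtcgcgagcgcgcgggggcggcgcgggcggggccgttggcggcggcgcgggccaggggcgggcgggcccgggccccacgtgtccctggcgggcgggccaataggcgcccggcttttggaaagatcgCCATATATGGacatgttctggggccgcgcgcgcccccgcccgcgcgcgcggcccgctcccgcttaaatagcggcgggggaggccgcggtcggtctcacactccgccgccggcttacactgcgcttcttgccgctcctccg

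CArG boxes stood in the windows of 4 of the 33 members with an entry (4 of 38 windows, 10.5%), against 1.63% of 32851 mouse windows, searched on both strands. They are set side by side in 30 bases each, with the box in capitals, from chr11:120348566-120348595 (minus strand), chr10:128493040-128493069 (minus), chr14:20929161-20929190 (plus) and chr6:113377863-113377892 (plus).
Actg1: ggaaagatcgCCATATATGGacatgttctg
Myl6: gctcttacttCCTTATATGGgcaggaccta
Vcl: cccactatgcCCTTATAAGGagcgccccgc
Arpc4: CCTAATTTGGtgcccaacctgaggtcgggc
The 4 genes did not share a response to LPS in shGIV cells, where Actg1 rose, Arpc4 fell on the TPM scale, and the myosin light chain Myl6 (0.08 ± 0.08) and vinculin (Vcl, -0.30 ± 0.13) did not pass the threshold. In Vcl the box overlaps a κB-type match. Actb, Enc1 and Marcks had no entry and could not be searched. A link between the box and the response was not tested.

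Among the monomer-binding proteins, the TPM moved little in shGIV cells, where TMM put the 3 differences at 0.41 to 0.70. Cfl1, the cofilin that severs old filaments, had 1732, 1765 and 1691 TPM in shGIV cells with LPS, against 1706, 1679 and 1672 TPM without (0.04 ± 0.05, adjusted p = 0.523). Tmsb4x, which sequesters monomers, differed by -0.15 ± 0.07 in shGIV cells (adjusted p = 0.107) and -0.13 ± 0.11 in shC cells (adjusted p = 0.334). Profilin (Pfn1), which feeds monomers to growing ends, had 1392, 1467 and 1402 TPM in shGIV cells with LPS, against 1610, 1687 and 1805 TPM without. Pfn1 differed by -0.26 ± 0.08 in shGIV cells (adjusted p = 0.0151), and by 0.41 under TMM. The related thymosin Tmsb10, not a member, rose in both lines (0.44 ± 0.09, adjusted p = 0.00268 in shGIV cells, and 0.59 ± 0.14, adjusted p = 0.00749 in shC cells), and the ratio of Tmsb4x to Tmsb10 was 5.42 to 6.52 in shGIV cells with LPS and 8.21 to 9.34 without.

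The subunits of the Arp2/3 complex changed unequally. In shGIV cells its 2 actin-related subunits and Arpc5 rose, Arpc1b and Arpc4 fell on the TPM scale, and Arpc2 and Arpc3 did not pass the threshold, whereas under TMM all 7 were higher, by 0.11 (Arpc1b) to 1.43 (Actr3). Actr3 had 358, 334 and 340 TPM in shGIV cells with LPS, against 201, 205 and 198 TPM without, and 458 TPM in shC cells with LPS, against 222 and 247 TPM without. Its difference was 0.77 ± 0.06 in shGIV cells (adjusted p = 7.02e-06) and 0.97 ± 0.09 in shC cells (adjusted p = 4.78e-05). Actr3 shares 1574 of its 4714 words with the pseudogene Gm8822. Actr2, the other actin-related subunit, rose by 0.49 ± 0.09 in shGIV cells (adjusted p = 0.00111) and 0.40 ± 0.13 in shC cells (adjusted p = 0.0285). Its rise in shC cells was not called under every scaling.

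Arpc5, the small subunit that has a paralogue in Arpc5l, had 276, 242 and 249 TPM in shGIV cells with LPS, against 194, 172 and 177 TPM without. Control-hairpin (shC) cells had 269 TPM with LPS, against 193 and 195 TPM without. Arpc5 rose by 0.49 ± 0.07 in shGIV cells (adjusted p = 0.00026) and 0.47 ± 0.10 in shC cells (adjusted p = 0.0052), while Arpc5l fell by 1.36 ± 0.06 in shGIV cells (adjusted p = 5.71e-07) and 1.32 ± 0.10 in shC cells (adjusted p = 1.66e-05). The rise of Arpc5 in shC cells was not called under every scaling. The ratio of Arpc5 to Arpc5l in TPM, on which a single scaling factor per library has no effect, was 12.2 to 13.6 in shGIV cells with LPS and 3.39 to 3.45 without, and 13.2 in shC cells with LPS and 3.65 and 3.77 without. The other paralogue pair kept a narrower range, with Arpc1b exceeding Arpc1a 26.6 to 28.1 times in shGIV cells with LPS and 31.1 to 33.8 times without.

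Arpc1b, mutated in an immune deficiency of humans, had 1005, 950 and 972 TPM in shGIV cells with LPS, against 1401, 1419 and 1479 TPM without, and 1026 TPM in shC cells with LPS, against 1244 and 1403 TPM without. The groups were apart in both lines, and the difference was -0.55 ± 0.06 in shGIV cells (adjusted p = 6.13e-05) and -0.36 ± 0.09 in shC cells (adjusted p = 0.00928). These values are within 0.04 of the median of all genes, and under TMM they were 0.11 and 0.13. Arpc4 fell in shGIV cells by 0.53 ± 0.07 (adjusted p = 0.000272) and was at -0.17 ± 0.11 in shC cells (adjusted p = 0.213), with TMM values of 0.13 and 0.32.

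The activators upstream of the complex were far less abundant than its subunits. Was, which encodes the haematopoietic WASP, had 35.6, 33.7 and 34.0 TPM in shGIV cells with LPS, against 57.7, 52.8 and 57.6 TPM without, a fall of 0.69 ± 0.07 (adjusted p = 4.78e-05). In shC cells Was had 42.8 TPM with LPS, against 47.8 and 55.3 TPM without (-0.26 ± 0.11, adjusted p = 0.0671). Wasf2, which encodes WAVE2, fell by 0.50 ± 0.08 in shGIV cells (adjusted p = 0.000422) and 0.37 ± 0.11 in shC cells (adjusted p = 0.0224). Under TMM, Was was at -0.03 and Wasf2 at 0.15 in shGIV cells. Coronin 1A (Coro1a), which binds filaments and the complex, did not pass the threshold in either line (-0.10 ± 0.10 in shGIV cells and -0.03 ± 0.15 in shC cells).

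Gelsolin (Gsn), which severs and caps filaments in a calcium-dependent way, had 118, 129 and 114 TPM in shGIV cells with LPS, against 301, 304 and 299 TPM without. Control-hairpin (shC) cells had 128 TPM with LPS, against 255 and 325 TPM without. The groups were well apart, and Gsn fell by 1.32 ± 0.09 in shGIV cells (adjusted p = 4.88e-06) and by 1.16 ± 0.14 in shC cells (adjusted p = 0.000222). Across the 4 scalings the difference ran from -1.38 to -0.66 in shGIV cells and from -1.37 to -0.67 in shC cells. Its relative Capg, a capping protein that does not sever, was at 1523, 1631 and 1434 TPM in shGIV cells with LPS, against 1525, 1510 and 1460 TPM without, and the groups overlapped (adjusted p = 0.789). The barbed-end capping subunit Capzb fell in shGIV cells by 0.23 ± 0.08 (adjusted p = 0.0287), a call that was lost with the set number as a block (adjusted p = 0.0555) and a value that became 0.44 under TMM. Capza1 did not pass (-0.09 ± 0.06, adjusted p = 0.224), and 32.8% of its words are its own.

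The 5 bundlers and crosslinkers went different ways. Lcp1, which encodes the leukocyte bundler L-plastin, had 723, 699 and 680 TPM in shGIV cells with LPS, against 552, 522 and 530 TPM without (0.39 ± 0.05, adjusted p = 0.000229). The crosslinker filamin A (Flna) had 236, 255 and 224 TPM in shGIV cells with LPS, against 160, 163 and 174 TPM without (0.52 ± 0.08, adjusted p = 0.00051). Both also rose in shC cells, by 0.68 ± 0.08 and 0.75 ± 0.12 (adjusted p = 0.000194 and 0.00118).

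The 2 non-muscle alpha-actinins changed unequally. Actn1 had 123, 133 and 119 TPM in shGIV cells with LPS, against 102, 98.2 and 105 TPM without, and 181 TPM in shC cells with LPS, against 91.1 and 106 TPM without. Actn4 had 124, 133 and 117 TPM in shGIV cells with LPS, against 196, 208 and 212 TPM without, and 157 TPM in shC cells with LPS, against 183 and 229 TPM without. The ratio of Actn1 to Actn4 was 0.995 to 1.02 in shGIV cells with LPS and 0.473 to 0.519 without, and 1.15 in shC cells with LPS and 0.461 and 0.497 without. Actn1 rose by 0.29 ± 0.07 in shGIV cells (adjusted p = 0.00632) and 0.88 ± 0.11 in shC cells (adjusted p = 0.000279). Actn4 fell by 0.72 ± 0.09 in shGIV cells (adjusted p = 0.000158) and 0.38 ± 0.14 in shC cells (adjusted p = 0.0418, or 0.0506 and not called with the set number as a block), and was at -0.05 and 0.11 under TMM.

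Fascin (Fscn1), a bundler of filopodia, was barely present, with 1.33, 1.83 and 1.24 TPM in shGIV cells with LPS, against 0.971, 0.533 and 0.908 TPM without. In the shC line it had 2.08 TPM with LPS, against 0.114 and 0.707 TPM without. The rise passed in shC cells (1.16 ± 0.32, adjusted p = 0.0145, or 0.0656 and not called with the set number as a block) and was 0.45 ± 0.21 in shGIV cells (adjusted p = 0.0843). The difference between these responses was not past the threshold (-0.71 ± 0.38, adjusted p = 0.383).

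Of the myosin II subunits, the heavy chain Myh9 had 86.8, 96.3 and 82.3 TPM in shGIV cells with LPS, against 103, 110 and 115 TPM without, a difference of -0.30 ± 0.10 (adjusted p = 0.0274) that became 0.36 under TMM. In shC cells it was at -0.06 ± 0.16 (adjusted p = 0.766). The regulatory light chain Myl12a rose in shGIV cells by 0.44 ± 0.12 (adjusted p = 0.01) and was at 0.34 ± 0.18 in shC cells (adjusted p = 0.138), and it shares 589 of its 3382 words with Myl12b. The essential light chain Myl6 did not pass in either line.

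Adhesion plaque proteins were led by zyxin (Zyx), which gathers at strained filaments and focal adhesions. Zyx had 40.4, 44.0 and 34.9 TPM in shGIV cells with LPS, against 16.7, 13.4 and 13.4 TPM without, and 44.2 TPM in shC cells with LPS, against 13.0 and 14.2 TPM without. The groups were far apart, with a difference of 1.40 ± 0.11 in shGIV cells (adjusted p = 1.15e-05) and 1.63 ± 0.17 in shC cells (adjusted p = 0.000111). Talin (Tln1), which couples integrins to actin, rose by 0.27 ± 0.10 in shGIV cells (adjusted p = 0.0418) and 0.67 ± 0.15 in shC cells (adjusted p = 0.00633). Vcl, which encodes vinculin, a protein that strengthens the talin link, had 13.9, 14.9 and 11.0 TPM in shGIV cells with LPS, against 14.6, 16.3 and 18.7 TPM without, and these overlapped (adjusted p = 0.0648).

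The promoter window of Zyx is shown for its AP-1 motif, since AP-1 is a factor known to be activated by LPS in macrophages. The window, on the plus strand of chr6:42349578-42349877 (GRCm38.p6), holds TGAGTCA, in capitals, 121 bases before the start.
Zyx: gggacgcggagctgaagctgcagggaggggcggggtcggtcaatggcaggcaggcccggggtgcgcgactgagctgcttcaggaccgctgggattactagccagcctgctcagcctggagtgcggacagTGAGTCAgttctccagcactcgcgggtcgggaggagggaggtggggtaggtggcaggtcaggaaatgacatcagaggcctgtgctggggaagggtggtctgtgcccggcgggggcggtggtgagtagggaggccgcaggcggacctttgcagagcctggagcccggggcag
This motif, searched on both strands, stood in 5.2% of all windows and in those of 3 members, Zyx, Ezr and Myl12a (3 of 38 windows, 7.89%). In shGIV cells Zyx and Myl12a rose with LPS and Ezr did not pass the threshold. A link between the motif and the response was not tested.

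The MARCKS proteins, which bind membrane phospholipids, actin and calmodulin, showed the highest differences of the 36 genes. Marcksl1 had 1619, 1663 and 1487 TPM in shGIV cells with LPS, against 86.9, 85.2 and 83.7 TPM without. In the shC line it had 1834 TPM with LPS, against 82.7 and 96.1 TPM without. No library with LPS came near one without it, and the difference was 4.20 ± 0.07 in shGIV cells (adjusted p = 4.66e-09) and 4.35 ± 0.11 in shC cells (adjusted p = 1.01e-07). The rank of Marcksl1 among all genes of a library was 78 to 85 in shGIV cells with LPS and 1487 to 1572 without.

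Marcks had 32.1, 18.7 and 23.5 TPM in shGIV cells with LPS, against 0.0219, 0.0207 and 0.0216 TPM without. Its level in shC cells was 14.9 TPM with LPS, against 0.0347 TPM in replicate 1 without LPS and a value listed at 0 in replicate 3. The transcript thus stood near or at 0 without LPS in both lines. The fitted differences of 4.62 ± 0.18 in shGIV cells (adjusted p = 2.18e-07) and 3.97 ± 0.27 in shC cells (adjusted p = 1.2e-05) depend on the pseudocount of 1 and understate the change.

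Marcksl1, as the gene with a high level and an 18.4-fold difference in TPM + 1 in shGIV cells, is shown with its promoter window on the plus strand of chr4:129513331-129513630 (GRCm38.p6). None of the 4 motifs searched (CArG box, κB site, TGAGTCA and the interferon-stimulated response element) is in its letters, so it has no capitals.
Marcksl1: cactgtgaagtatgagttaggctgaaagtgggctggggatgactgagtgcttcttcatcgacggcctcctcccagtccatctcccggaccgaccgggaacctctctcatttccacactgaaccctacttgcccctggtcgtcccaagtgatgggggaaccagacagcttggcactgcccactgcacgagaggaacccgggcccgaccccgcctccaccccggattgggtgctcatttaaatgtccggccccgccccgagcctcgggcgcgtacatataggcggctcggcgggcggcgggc
The κB type match stood in 8.46% of all windows and in those of 6 members (6 of 38 windows, 15.8%). Of these, Arpc5, Actr2, Flna and Myl12a rose with LPS in shGIV cells, where 14 of all 36 members did. Those 14 include Actb and Marcks, which have no window. Vim fell on the TPM scale and Vcl did not pass. A link between the match and the response was not tested. The interferon-stimulated element stood in 3.44% of all windows and in none of the 38 member windows.

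Moesin (Msn), the leukocyte member of the ezrin family that links filaments to the membrane, had 443, 416 and 404 TPM in shGIV cells with LPS, against 283, 276 and 281 TPM without. Its level in shC cells was 523 TPM with LPS, against 269 and 296 TPM without. Its rise was 0.59 ± 0.06 in shGIV cells (adjusted p = 3.5e-05) and 0.89 ± 0.09 in shC cells (adjusted p = 7.6e-05). Ezrin (Ezr) was much scarcer, at 26.1, 25.4 and 21.7 TPM in shGIV cells with LPS, against 29.9, 30.7 and 25.6 TPM without, and the groups overlapped (-0.23 ± 0.09, adjusted p = 0.059, or 0.0456 with the set number as a block).

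Vimentin (Vim), an intermediate filament protein rather than an actin binder, had 1298, 1408 and 1260 TPM in shGIV cells with LPS, against 2252, 2315 and 2503 TPM without. The shC line had 1899 TPM with LPS, against 2402 and 2969 TPM without. It fell by 0.83 ± 0.09 in shGIV cells (adjusted p = 6.28e-05) and by 0.49 ± 0.14 in shC cells (adjusted p = 0.0153), which under TMM became -0.17 and 0.01.

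**Figure D3:**
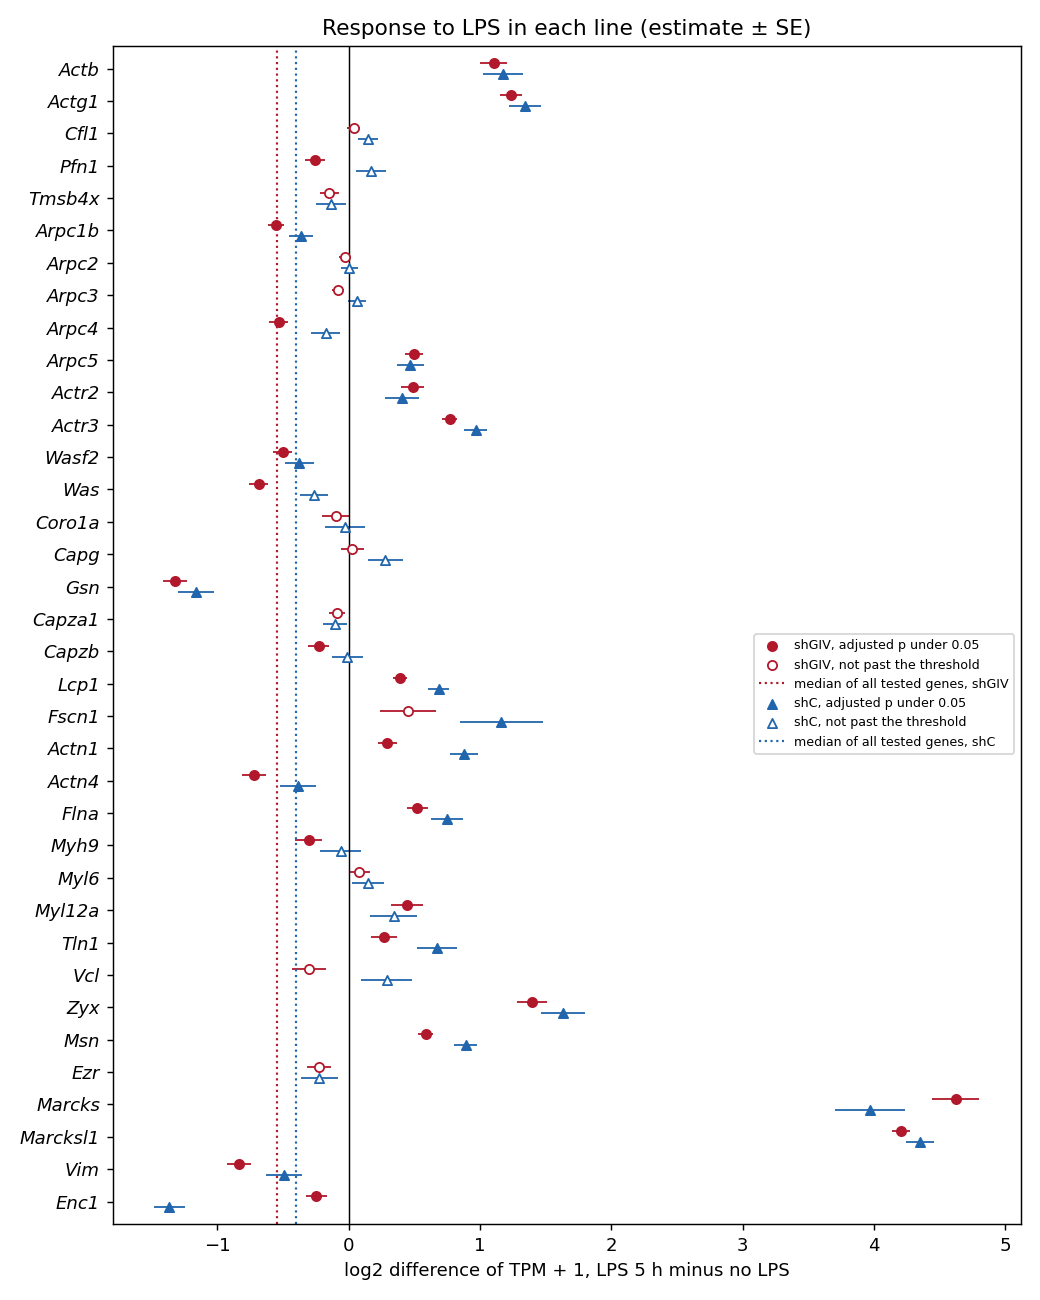
The log2 difference with LPS, as estimate ± SE, for each gene in shGIV cells (circles) and shC cells (triangles), with filled symbols for adjusted p under 0.05 and dotted lines at the median of all tested genes. Marcks and Marcksl1 stand between 3.97 and 4.62, the actins and Zyx above 1, and Gsn below -1 in both lines, and Enc1 is at -0.25 in shGIV cells (above 0 under TMM) and -1.36 in shC cells.

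Without LPS, GIV depletion left no member past the threshold. By limma, 0 of 36 members were called, where 1.22% of all genes were (0.489% higher and 0.729% lower), and 3 members, against 1678 of 13711 genes, had an unadjusted p below 0.05. Tmsb4x had 1990, 1895 and 1878 TPM in shGIV cells, against 2506 and 2316 TPM in shC cells (-0.33 ± 0.08, adjusted p = 0.154). Actr3 had 201, 205 and 198 TPM in shGIV cells, against 222 and 247 TPM in shC cells (-0.22 ± 0.06, adjusted p = 0.218). Actg1 had 724, 734 and 774 TPM in shGIV cells, against 839 and 993 TPM in shC cells (-0.30 ± 0.09, adjusted p = 0.246). In all 3, every shGIV library lay below every shC library. This held for 6 of the 36 members, where 12.7% of all genes did so. Every shGIV library lay above every shC library for 0 members, where 15.6% of all genes did so. Actr3 alone was called lower under the 3 other scalings. The median of the members was 0.0037, against 0.024 for all genes.

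With LPS, Actr3 and Actn1 were lower in GIV-depleted cells than in the single control library, and Enc1 was higher. These 3 of 36 members passed the threshold, where 5.27% of all genes did (0.89% higher and 4.38% lower). Estimates of 32 of the 36 members were below 0, against 67.8% of all genes, and the median was -0.23 for members and -0.12 for all genes. Every shGIV library lay below the shC library for 26 members, where 48.7% of all genes did so, and above it for 2 members, where 15.8% did. TMM brought the median of the members to -0.08 and that of all genes to 0.01.

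Actr3 had 358, 334 and 340 TPM in shGIV cells with LPS, against 458 TPM in the shC library (-0.41 ± 0.08, adjusted p = 0.0303). Actn1 had 123, 133 and 119 TPM in shGIV cells with LPS, against 181 TPM in the shC library (-0.53 ± 0.10, adjusted p = 0.0297). Both calls held under the 4 scalings. Leaving out 1 library raised the adjusted p as far as 0.083 for Actr3 and 0.0756 for Actn1, and the set number as a block gave 0.111 and 0.109. The members nearest to them that did not pass were Vim (-0.52 ± 0.13, adjusted p = 0.0605), Msn (-0.31 ± 0.08, adjusted p = 0.0703) and Lcp1 (-0.26 ± 0.07, adjusted p = 0.0887). Macrophage markers moved with the same contrast, with 4 of 11 tested markers lower in shGIV cells with LPS and 3 of 11 lower without, and their part in the members' values was not tested.

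**Figure D4:**
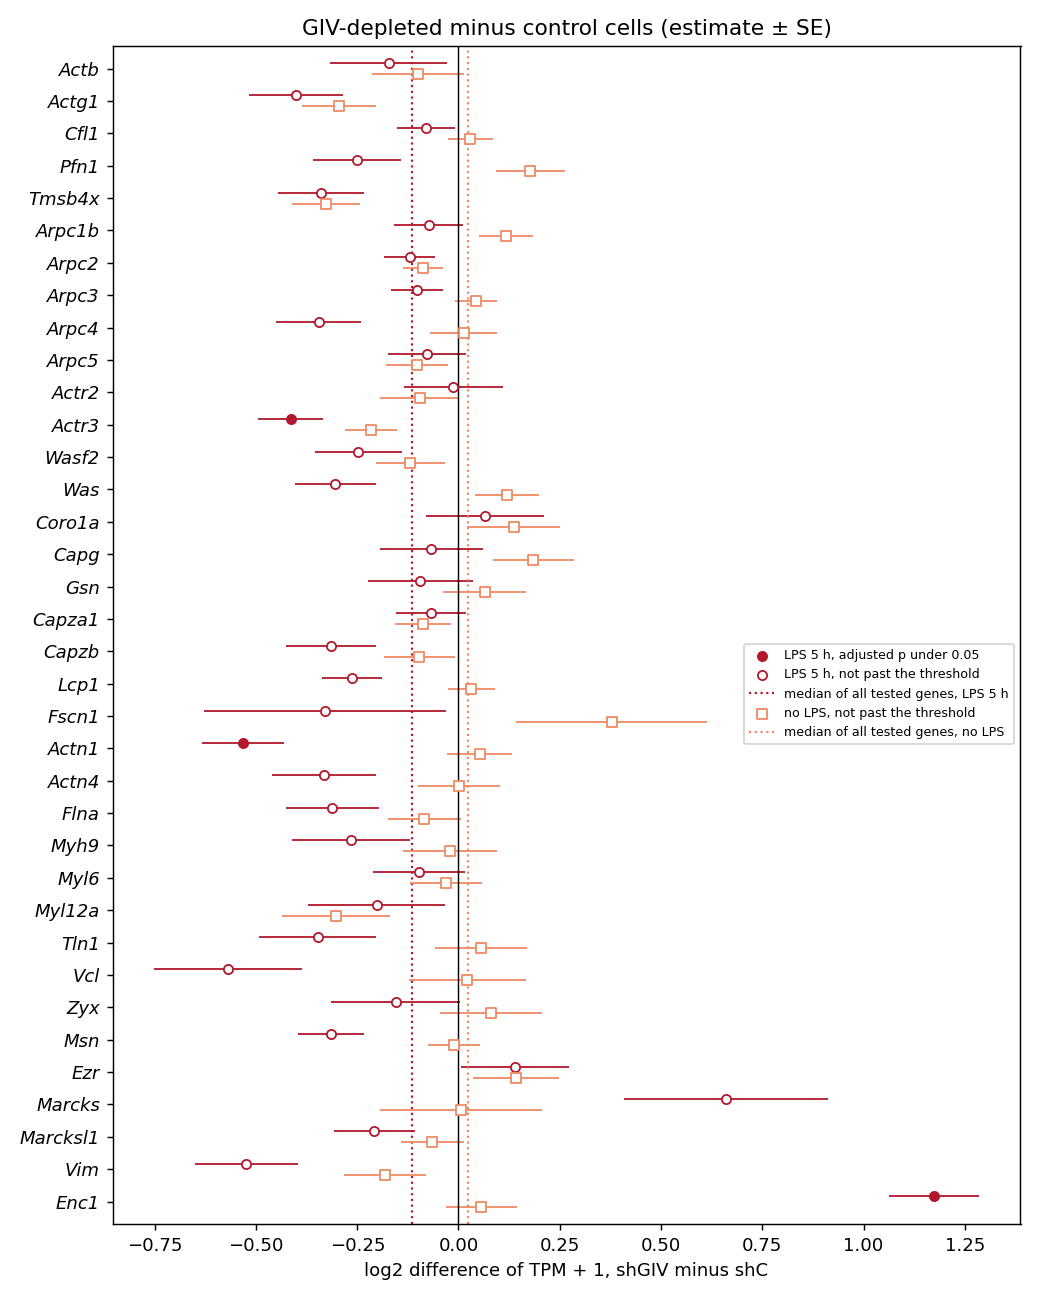
The log2 difference of shGIV minus shC cells, as estimate ± SE, with LPS (circles) and without (squares), with filled symbols for adjusted p under 0.05 and dotted lines at the median of all tested genes. With LPS 32 of 36 estimates lie below 0, and Enc1 stands apart at 1.17; without LPS no symbol is filled.

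Enc1, a kelch-repeat protein that binds actin and was described in neural tissue, showed the one response to LPS among the 36 genes that differed between the lines past the threshold. It had 7.17, 6.50 and 6.32 TPM in shGIV cells with LPS, against 7.79, 8.12 and 8.35 TPM without. The shC line had 2.39 TPM with LPS, against 7.33 and 8.17 TPM without. The lines thus overlapped without LPS, and with LPS each shGIV library was above the shC library, at a mean 279% of its level. With LPS the level stood at 82.4% of the unstimulated mean in shGIV cells and at 30.9% in shC cells.

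The response of Enc1 was -0.25 ± 0.08 in shGIV cells (adjusted p = 0.0211) and -1.36 ± 0.12 in shC cells (adjusted p = 4.35e-05). In shGIV cells its direction depended on the scaling, being 0.34 under TMM and 0.43 with quantile normalization, whereas in shC cells it was called lower under all 4. The difference between the lines with LPS was 1.17 ± 0.11 (adjusted p = 0.00319), which leaving out 1 library raised to 0.0132 at most and the block to 0.0451. The difference of the responses was 1.12 ± 0.14 (adjusted p = 0.0405, where 0.226% of all genes passed, 0.0948% higher), and it was lost in each of the 8 fits that left out 1 library (adjusted p up to 0.136) and with the block (adjusted p = 0.249). All of these rest on the single shC library with LPS. The next largest difference of responses among members by unadjusted p was that of Actn1 (-0.58 ± 0.13, adjusted p = 0.1), and 35 of the 36 members did not pass.

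**Figure D5:**
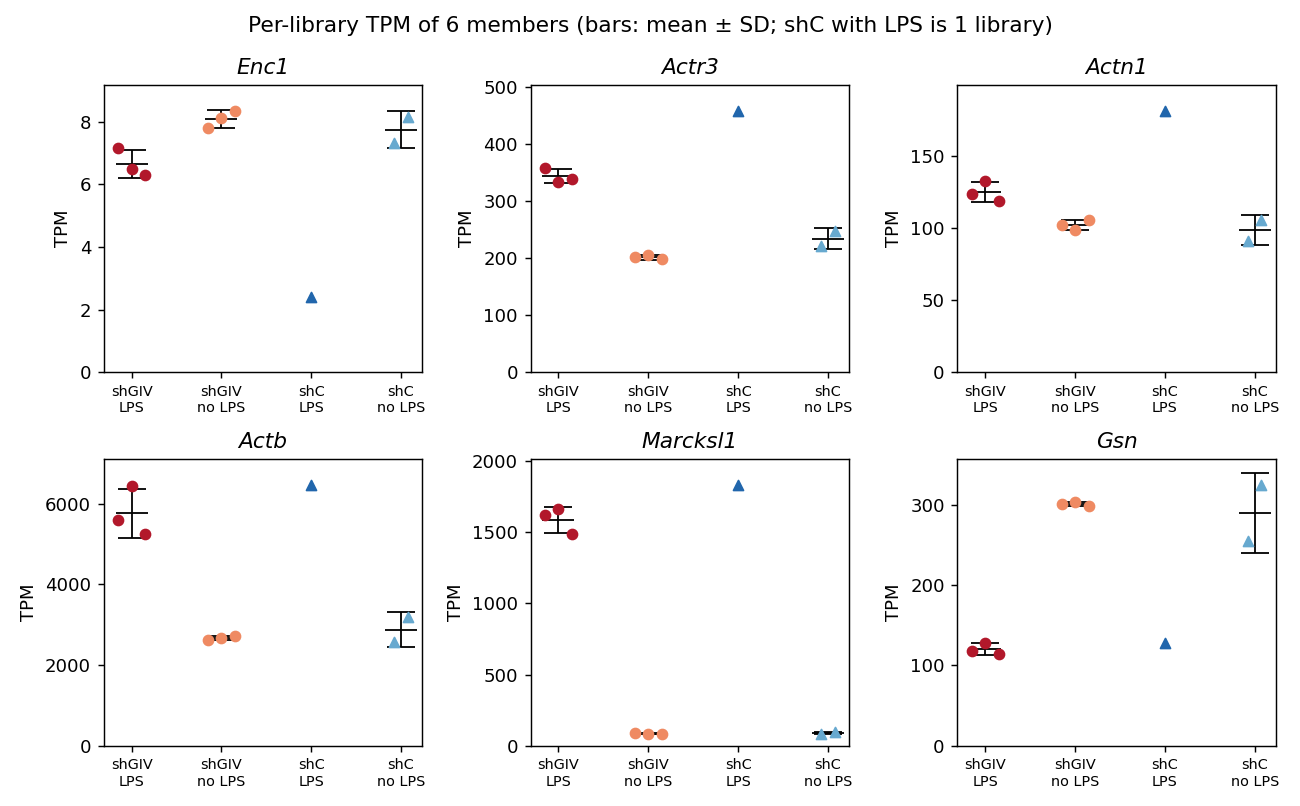
TPM per library for Enc1, Actr3, Actn1, Actb, Marcksl1 and Gsn in shGIV cells with LPS, shGIV cells without, shC cells with LPS (1 library) and shC cells without, with mean ± SD where there are several. Only in the Enc1 panel does the shC library with LPS, at 2.39 TPM, lie far below the 3 shGIV libraries with LPS, at 6.32 to 7.17 TPM.

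Other genes of the actin machinery, 217 in 12 lists of which 180 symbols were tested in 181 rows, fell more often than they rose on the TPM scale, as did all genes. With LPS 42 rows were higher and 105 lower in shGIV cells (23.2% and 58.0%), and 42 were higher and 78 lower in shC cells (23.2% and 43.1%). Of all genes, 15.8% were higher and 59.7% lower in shGIV cells, and 14.8% and 44.1% in shC cells. Under TMM these shares of all genes were 34.5% and 32.6% in shGIV cells, and 28.5% and 25.0% in shC cells. Among other Arp2/3 subunits, activators and inhibitors, 7 were higher and 13 lower of 24 rows in shGIV cells, or 11 and 8 under TMM. Whamm, an activator at internal membranes, had 25.5, 25.0 and 27.1 TPM in shGIV cells with LPS, against 6.36, 8.08 and 6.99 TPM without. Hcls1, the leukocyte cortactin that stabilises branches, rose by 1.02 ± 0.08 (adjusted p = 9.12e-06), and the coronin Coro1c fell by 1.83 ± 0.09 (adjusted p = 9.09e-07). The formins, which build unbranched filaments, had 3 higher and 6 lower of 10 in shGIV cells, or 4 and 4 under TMM. Among them Diaph2 rose by 1.21 ± 0.09 (adjusted p = 7.31e-06) and Inf2 fell by 1.96 ± 0.10 (adjusted p = 9.48e-07).

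Adhesion and podosome adaptors were the list with most rises, 12 higher and 9 lower of 22 in shGIV cells and 12 and 5 in shC cells, or 14 and 3, and 14 and 2, under TMM. The kinase Src rose by 2.99 ± 0.11 in shGIV cells (adjusted p = 2.08e-07) and by 3.49 ± 0.17 in shC cells (adjusted p = 2.48e-06), and Evl, which protects growing ends, rose by 2.51 ± 0.08 in shGIV cells (adjusted p = 7.78e-08). Crosslinkers and tropomyosins had 3 higher and 9 lower of 18 in shGIV cells, and 11 and 5 under TMM. Among them the tropomyosin Tpm1 fell by 1.92 ± 0.06 (adjusted p = 7.78e-08). Other myosins had 2 higher and 12 lower of 16, or 5 and 8 under TMM, with Myo1f at 37.5, 42.2 and 36.5 TPM in shGIV cells with LPS, against 110, 122 and 129 TPM without.

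GIV depletion without LPS left 1 of these 181 rows called (0.552%, against 1.22% of all genes), that of Myo1d, with 18.2, 18.5 and 19.4 TPM in shGIV cells, against 9.63 and 11.2 TPM in shC cells (0.79 ± 0.09, adjusted p = 0.0101, or 0.061 with the set number as a block). With LPS 4 rows were higher and 12 lower (8.84% in all, against 5.27% of all genes). Among the lower were the GTPase Rac1, which drives lamellipodia through the WAVE complex (-0.36 ± 0.08, adjusted p = 0.0464), Evl (-0.61 ± 0.11, adjusted p = 0.0246), the exchange factor Vav3 (-0.82 ± 0.12, adjusted p = 0.0122) and Myo5a (-0.75 ± 0.13, adjusted p = 0.0223). None of these 4 was called with the set number as a block (adjusted p from 0.0596 to 0.105), and Rac1 and Evl were called under none of the other scalings. These again rest on the single shC library.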

How the data were processed

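The authors' deposited values are log2(TPM + 1) per gene, quantified with kallisto 0.45.0 on GRCm38 per the submitters' processing notes, from stranded total RNA libraries read as paired ends. They were turned back to TPM, which sums to 1000000 per library. No other step is given in the sources used here. The shC replicate 3 with LPS was not analysed here, since no column was matched to it.

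A gene was kept where 2 or more of the 9 libraries reached 1 on that log scale. Kept genes were tested with limma 3.58.1 (R 4.3.3, 4 group means, trended moderation, residual df 5, Benjamini-Hochberg over 13711 genes, threshold 0.05). The method was checked on simulated data for LPS in shGIV cells only, with a small part of the genes changed. That check had no shift of most genes and did not cover differences that use shC cells. The 36 members and the lists were chosen with earlier results of these data known. Beyond members, list genes were named by rule: at most 2 called genes per list, direction and comparison with the largest difference and a group mean of at least 10 TPM. Arpc5l, Arpc1a, Tmsb10 and Myl12b were given as paralogues of members, chosen after their values were seen. For shGIV cells with and without LPS, libraries of the same set number deviated together, though weakly, from their group means (r = 0.179, 0.205 and 0.186 across 9481 genes). Unlike set numbers gave r from -0.142 to -0.0532, but deviations within a group sum to 0, so these values are not independent. The numbers may thus pair those samples. The main model has no block, and the blocked value is given where it changed a call. TMM factors, quantile normalization, rescaling, filters, pseudocounts and leaving out each library were alternatives. Promoter windows came from RefSeq (GRCm38.p6), matched by symbol for 33 of 36 members, and words shared between genes from GENCODE M21 transcripts.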

Additional observations from a re-analysis of the deposited data

Results flagged for a closer look

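Enc1 responded to LPS differently in the 2 lines, by 1.12 on the log2(TPM + 1) scale (adjusted p = 0.0405). Its 3 shGIV libraries with LPS had 7.17, 6.50 and 6.32 TPM, against 2.39 TPM in the shC library with LPS. The call was lost in every fit that left out 1 library.

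Rnd1, a GTP-binding protein known for loss of stress fibres, differed between the responses by 1.69 ± 0.19 (adjusted p = 0.0307). The call was lost with the set number as a block (adjusted p = 0.217), with the left-out library added (0.715), and in the 6 of 8 leave-one-out fits that dropped a shGIV library, where the adjusted p reached 0.104. It had 118, 119 and 114 TPM in shGIV cells with LPS, against 35.2 TPM in the shC library with LPS. Without LPS it had 3.60, 4.10 and 3.74 TPM in shGIV cells, against 3.13 and 4.52 TPM in shC cells. Both differences rest on 1 shC library.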

How the results depend on the processing

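Of 3473 values of members and Ccdc88a under 19 alternatives, 3251 kept their side of the threshold, 138 were no longer past it, 51 became so and 33 changed sign with a call in at least 1 of the fits. A further 169 estimates changed sign among the 2457 that were called in neither fit. With LPS in shGIV cells, TMM gave 32 members higher and 1 lower, and adding the left-out library gave 2 and 0. In shC cells TMM gave 29 higher and 2 lower, adding the left-out library 1 and 0, the 2 groups alone 3 and 1, quantile normalization 12 lower and no filter 3 lower. Without LPS, 1 member (Actr3) was lower in shGIV cells under TMM, quantile and rescaling. With LPS, no member was higher in shGIV than in shC cells (0) with the 2 groups alone or the added library, and none was lower (0) with these, without the filter, without the trend or with the replicate block; leaving out 1 library gave 0 to 4 lower (0 without any one of the shGIV libraries lacking LPS). The difference of responses gave 0 higher with the added library, the replicate block and in each leave-one-out fit (0 to 0). The block changed 7 calls in all. Between shC and shGIV libraries of the same set number, both without LPS, r was 0.124 and 0.0687. Between the same 2 shC libraries and shGIV cells with LPS it was 0.15 and 0.0274. The deviations of 2 libraries from their mean mirror each other, so these values cannot decide whether the set numbers pair the lines.

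Under TMM in shGIV cells the log2 difference with LPS became 0.41 for Pfn1, 0.52 for Tmsb4x, 0.11 for Arpc1b, 0.64 for Arpc2, 0.58 for Arpc3, 0.13 for Arpc4, 0.15 for Wasf2, 0.57 for Coro1a, 0.58 for Capza1, 0.44 for Capzb, 0.36 for Myh9, 0.32 for Vcl, 0.42 for Ezr and 0.34 for Enc1. In shC cells it became 0.36 for Tmsb4x, 0.13 for Arpc1b, 0.32 for Arpc4, 0.11 for Wasf2, 0.23 for Was, 0.47 for Coro1a, 0.39 for Capza1, 0.49 for Capzb, 0.11 for Actn4, 0.43 for Myh9 and 0.0058 for Vim. TMM sets the middle of the genes near 0, a shift of 0.55 in shGIV and 0.40 in shC cells. Quantile normalization gave 0.25 for Ezr and 0.43 for Enc1 in shGIV cells, and -0.34 for Arpc2 and -0.25 for Arpc3 in shC cells. With the added library, shC differences became 0.94 for Arpc1b, 0.11 for Wasf2, 0.48 for Actn4 and 0.73 for Vim. The cause was not tested. The lone shC library with LPS cannot be left out, and depth per library is unknown, so the lowest genes, Marcks and Fscn1 without LPS, are the least certain.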

Other observations

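Of 6 serum response factor and MRTF genes, none rose with LPS and 4 fell in shGIV cells and 3 in shC cells, where 59.7% and 44.1% of all genes fell, against 1 higher and 2 lower, and 2 and 2, under TMM. Mkl1, an actin-sensing cofactor of serum response factor, fell by 1.96 ± 0.11 in shGIV cells (adjusted p = 1.83e-06) and 1.53 ± 0.17 in shC cells (adjusted p = 0.000158). Srf was at 20.8, 20.3 and 19.3 TPM in shGIV cells with LPS, against 32.0 TPM in the shC library (-0.64 ± 0.15, adjusted p = 0.0495), which was called neither under the other scalings (adjusted p from 0.0574 to 0.131) nor with the set number as a block (0.131).

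Among 15 tested tubulin and microtubule genes none rose, and 10 fell with LPS in shGIV cells and 11 in shC cells, where 59.7% and 44.1% of all genes fell, against 6 higher and 7 lower, and 3 and 7, under TMM. Stmn1, which destabilises microtubules, fell by 1.98 ± 0.06 in shGIV cells (adjusted p = 9.33e-08) and 1.71 ± 0.10 in shC cells (adjusted p = 4.83e-06). With LPS, Tuba1a was higher in shGIV cells than in the shC library (0.54 ± 0.12, adjusted p = 0.0464), a call that held under the other scalings but in only 2 of the 8 fits that left out 1 library.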
